A study of Mus musculus with 9 samples.

Results

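The Kruppel-like factors (KLFs) are DNA-binding transcription factors, and the 10 family members Klf2, Klf3, Klf4, Klf5, Klf6, Klf7, Klf9, Klf10, Klf11 and Klf13 were followed here. They were chosen by symbol, and each symbol was matched to its Ensembl identifier in the GENCODE M21 annotation of the mouse genome build GRCm38. All 10 were found among the 46603 genes of the deposited count files, and all 10 passed the filter on low counts that left 14176 genes for testing. The cells were mouse embryonic fibroblasts (MEFs, connective tissue cells grown from embryos) of the BALB/c strain, taken from embryos of day 10.5 and carrying a knockout of the β-actin gene Actb. One group received poly(dA:dT), which mimics viral double-stranded DNA, and a further group poly(I:C), which mimics viral double-stranded RNA, both at 10 µg/ml. Both were transfected for 6 h with Lipofectamine 2000 in Opti-MEM medium. The mock group received the transfection reagent alone for 6 h. Every group, mock included, carried the Actb knockout, and cells with intact Actb were not analysed here. Each group held 3 libraries, and the labels do not say whether these were separate cultures or whether the cells were clonal, so a p-value here reflects the spread of these libraries, and part of that spread may be technical.

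KLF proteins carry zinc fingers at their C-terminus that bind GC-rich elements such as the GC box and the CACCC box, which they share with the related Sp factors. Their N-terminal parts differ and recruit coactivators or corepressors, and the family is grouped by these partners into the KLF2, KLF4, KLF5, KLF6 and KLF7 group, known mostly as activators, the KLF3, KLF8 and KLF12 group, which binds the corepressor CtBP, and the KLF9, KLF10, KLF11, KLF13, KLF14 and KLF16 group, which binds the corepressor Sin3A. Several KLF genes are early response genes in fibroblasts, induced by serum, growth factors or TGF-β, and their mRNAs and proteins are short-lived.

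Promoter sequences were available for 8 of the 10 genes in a RefSeq table of windows from 250 bases before to 50 bases after the transcription start (build GRCm38.p6). Klf5 and Klf10 are named only. The 250 bases before the start are printed for 5 genes whose transcripts differ in their response: Klf2 and Klf6 were higher after both agents, Klf4 was called higher after poly(I:C) and not after poly(dA:dT), and Klf3 and Klf9 were lower after both. They lie at chr8:72318812-72319061 (plus strand) for Klf2, chr13:5861239-5861488 (plus strand) for Klf6, chr4:55532476-55532725 (minus strand) for Klf4, chr5:64803271-64803520 (plus strand) for Klf3 and chr19:23140976-23141225 (plus strand) for Klf9. Each is written 5′ to 3′ on the gene's strand, and capitals mark every match to the motifs named after the sequences. The start is that of RefSeq. For Klf2, Klf3, Klf6, Klf7 and Klf11 the GENCODE gene begins before it, so part of the bases before the start lie inside the counted gene. This holds for all 3 CACCC boxes of Klf3, and the Klf7 window lies wholly inside the gene.
Klf2: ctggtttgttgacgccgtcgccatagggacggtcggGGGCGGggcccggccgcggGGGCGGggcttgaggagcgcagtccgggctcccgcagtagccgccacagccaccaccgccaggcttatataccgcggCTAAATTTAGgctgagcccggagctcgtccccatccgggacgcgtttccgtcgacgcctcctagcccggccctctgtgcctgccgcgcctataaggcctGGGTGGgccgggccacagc
Klf6: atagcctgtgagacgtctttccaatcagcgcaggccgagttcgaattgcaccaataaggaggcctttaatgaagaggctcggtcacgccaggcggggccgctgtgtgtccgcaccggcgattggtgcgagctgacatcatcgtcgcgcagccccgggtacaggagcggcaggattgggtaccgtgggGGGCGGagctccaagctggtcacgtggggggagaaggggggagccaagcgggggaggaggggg
Klf4: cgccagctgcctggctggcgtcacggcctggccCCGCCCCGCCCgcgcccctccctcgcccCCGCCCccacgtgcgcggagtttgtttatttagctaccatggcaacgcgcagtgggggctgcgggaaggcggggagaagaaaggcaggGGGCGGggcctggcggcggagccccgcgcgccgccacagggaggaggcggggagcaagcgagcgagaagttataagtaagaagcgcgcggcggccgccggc
Klf3: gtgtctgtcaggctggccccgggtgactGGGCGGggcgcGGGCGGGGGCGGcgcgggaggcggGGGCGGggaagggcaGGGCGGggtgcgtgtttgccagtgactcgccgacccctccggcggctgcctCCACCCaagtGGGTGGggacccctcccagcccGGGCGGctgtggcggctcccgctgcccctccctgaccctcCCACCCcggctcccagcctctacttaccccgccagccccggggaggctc
Klf9: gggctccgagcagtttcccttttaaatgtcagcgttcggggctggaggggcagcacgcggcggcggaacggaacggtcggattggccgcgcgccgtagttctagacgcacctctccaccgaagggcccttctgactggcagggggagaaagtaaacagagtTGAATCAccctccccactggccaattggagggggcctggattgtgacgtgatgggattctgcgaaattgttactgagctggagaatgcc

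The motifs were searched on both strands of the 300-base windows, and a match describes letters only. The GC box was searched as GGGCGG. It was in 7 of the 8 windows and in 35.7% of all 32851 windows of that length, and Klf9 was the window without it. The CACCC box was searched as CCACCC. It was in 4 of the 8 windows, those of Klf2, Klf3, Klf7 and Klf13, and in 31.5% of all windows. GC and CACCC box matches overlap in the Klf13 window. The Klf3 window held 6 GC boxes and 3 CACCC boxes, the Klf4 window 4 GC boxes, and the Klf6 window 1 GC box. GC content was 58.3 to 77.7% in the 8 windows (median 70.7%) against a median of 52.7% over all windows. The AP-1 site was searched as TGANTCA, a loose pattern with any base at N. This pattern matched in the Klf9 window alone, as TGAATCA at positions -89 to -83 from the start, and in 7.81% of all windows. The match alone does not show that Klf9 holds an AP-1 site. The MEF2 site matched in the Klf2 window alone, at -118 to -109, and in 3.19% of all windows. The cyclic AMP response element was searched as TGACGTCA. These letters were in none of the 8 windows and in 1.79% of all. The core of the interferon-stimulated response element was searched as GAAANNGAA. It was in none of the 8 and in 8.56% of all. The NF-kB site (4.51% of all windows) and the CArG box bound by SRF (1.63%) were also in none of the 8.

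Reads assigned to genes summed to 16082772 to 29219797 per library, and levels are given as CPM, counts relative to the scaled library size. A count of 0 allows up to 3 counts, or 0.107 to 0.18 CPM at these depths. These limits cover counting error only. Actb stood at 33.3 ± 1.29 CPM (SD, n = 3) in the mock libraries, 30.6 ± 1.29 with poly(dA:dT) and 32.4 ± 1.34 with poly(I:C). Of 10 fibroblast markers, 8 were abundant enough to test, while Lum had 1 count and Fap 16 counts in all 9 libraries. Their summed level was 5588 to 5782 CPM in mock, 4850 to 4974 with poly(dA:dT) and 3931 to 4198 with poly(I:C), and 7 of the 8 were called lower in each comparison with mock. Over all genes tested, 26.2% were called lower with poly(dA:dT) and 36.3% with poly(I:C). Of 6 macrophage and leukocyte markers, Ptprc and Tyrobp were at 0 counts in every library, Adgre1, Itgam and Fcer1g had 2 to 7 counts in all, and Csf1r had 82. The sum of the 6 was 0.368 to 0.54 CPM in mock, 0.261 to 0.431 with poly(dA:dT) and 0.48 to 0.905 with poly(I:C). Csf1r had 30 counts in mock, 16 with poly(dA:dT) and 36 with poly(I:C), and passed the filter on low counts partly through the poly(I:C) libraries. Its call in poly(I:C) against poly(dA:dT) is therefore not used. In these bulk libraries, fewer cells of a type and less RNA per cell cannot be told apart. The antiviral genes Ifnb1, Isg15, Ifit1 and Cxcl10 were called higher in all 3 comparisons, the poly(I:C) group above the poly(dA:dT) group included.

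After poly(dA:dT), 5 of the 10 KLF genes rose and 2 fell. Klf2, Klf6, Klf7, Klf10 and Klf11 were higher than in mock, and Klf3 and Klf9 were lower. Genes were called at an adjusted p under 0.05 by edgeR's quasi-likelihood test with Benjamini-Hochberg adjustment over all 14176 genes, by which 26.6% of all genes tested were higher and 26.2% lower. The median log2 fold change of the 10 was 0.36, beside 0.01 over all genes tested. Klf2 was the 1 member at least 2-fold higher, beside 3.84% of all genes.

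After poly(I:C), all 10 KLF genes were called. The 5 genes above rose again, Klf4 and Klf5 rose as well, and Klf3, Klf9 and Klf13 fell. In this comparison 39.8% of all genes were called higher and 36.3% lower, so that a call in itself was common. The median log2 fold change of the 10 was 0.91, beside 0.04 over all genes. Klf2, Klf6, Klf7, Klf10 and Klf11 were at least 2-fold higher, which held for 13.1% of all genes.

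Poly(I:C) and poly(dA:dT) were also compared with each other. Klf2, Klf4, Klf5, Klf6, Klf7 and Klf10 were higher after poly(I:C), 6 of 10, while 31.3% of all genes were. Klf3 and Klf13 were lower, as were 32.1% of all genes, and Klf9 and Klf11 were not called. Klf2 and Klf6 were at least 2-fold higher, 2 of 10, beside 7.62% of all genes. The median log2 fold change of the 10 was 0.48, beside 0.00 over all genes. The comparisons with mock share the mock libraries, so their values are set side by side and not tested for likeness.

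**Figure D1:**
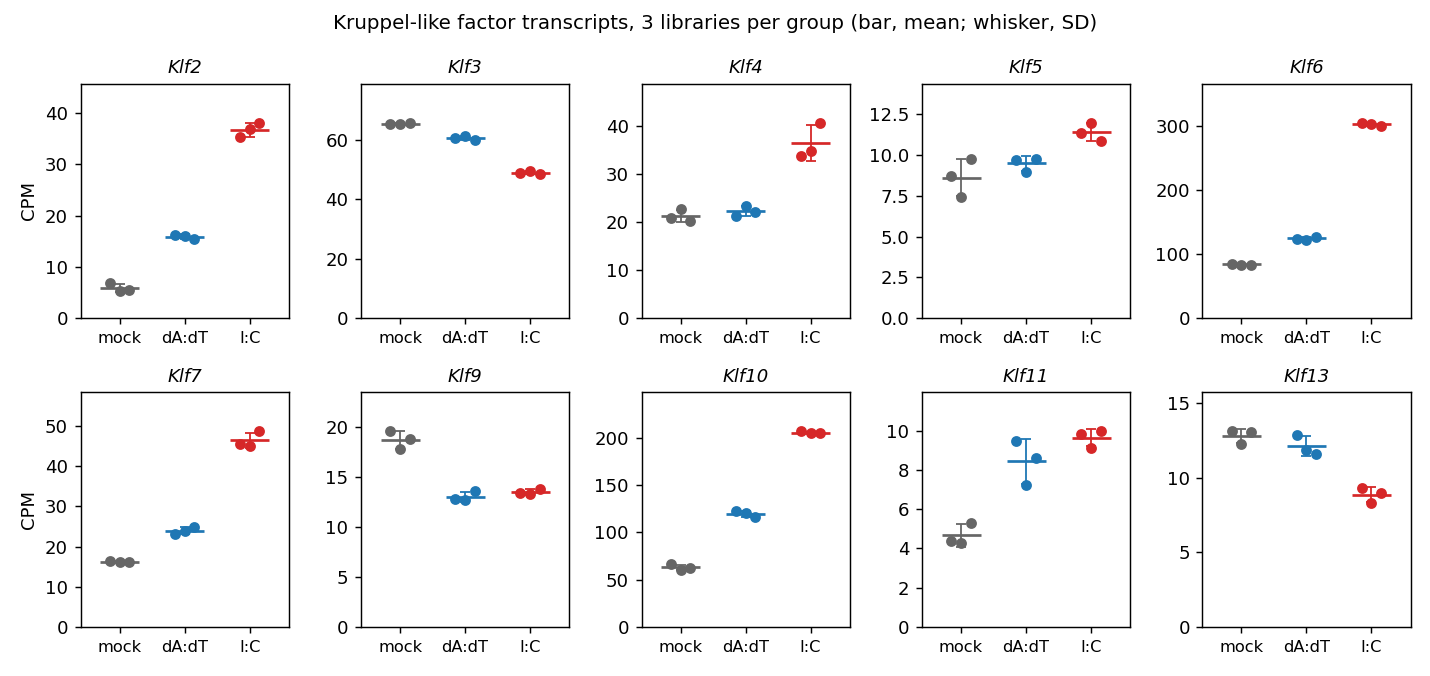
Transcript level of each of the 10 KLF genes in CPM (y axis, from 0, own scale per gene) in mock, poly(dA:dT) and poly(I:C) libraries. Points are the 3 libraries of a group, the bar is their mean and the whisker the SD; Klf6 runs from 83.3 to 85.1 CPM in mock to 301 to 306 after poly(I:C), while Klf3, Klf9 and Klf13 run downward.

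Klf2 encodes a factor known for its induction by fluid flow in endothelium and for restraining inflammatory genes, and lies at chr8:72319033-72321656 (plus strand). In mock its level was 6.77, 5.32 and 5.58 CPM in the 3 libraries, from 106 to 189 counts. After poly(dA:dT) it was 16.2, 16.1 and 15.4 CPM, and after poly(I:C) 35.3, 36.8 and 38.1 CPM. The 3 groups were fully separated, with mock lowest and poly(I:C) highest. The rise was 2.67-fold after poly(dA:dT) (95% interval 2.36 to 3.03, adjusted p = 2.71e-31) and 6.17-fold after poly(I:C) (5.52 to 6.89, adjusted p = 6.05e-69). Poly(I:C) exceeded poly(dA:dT) 2.31-fold (log2 1.21 ± 0.07 SE, adjusted p = 2.96e-37). Since Klf2 is best known from endothelium, endothelial markers were followed beside it. Of 6 such markers, Pecam1, Cdh5 and Kdr could be tested, but they passed the filter on low counts through the treated libraries, so their calls against mock are not used. Pecam1 had 7 to 11 counts and Kdr 6 to 18 per mock library. The part of these markers in the Klf2 result was not tested. The sum of the 6 was 0.831 to 1.18 CPM in mock, 3.04 to 3.51 with poly(dA:dT) and 5.09 to 5.34 with poly(I:C). Cdh5 was at 0 counts in every mock library and Emcn was at 0 in all 9 libraries.

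Klf6, a factor induced early by injury and growth signals in many tissues, was the highest of the 10 in mock per length of all exons, though second to Klf10 by longest transcript, and lies at chr13:5861482-5870394 (plus strand). Its level was 85.1, 83.3 and 83.9 CPM in mock, 124, 123 and 128 CPM with poly(dA:dT), and 306, 304 and 301 CPM with poly(I:C). The groups were separated by far more than the spread within them. It rose 1.49-fold after poly(dA:dT) (95% interval 1.42 to 1.55, adjusted p = 4.02e-39) and 3.61-fold after poly(I:C) (3.47 to 3.75, adjusted p = 4.95e-112). The difference between the agents was 2.43-fold (log2 1.28 ± 0.03 SE, adjusted p = 1.61e-91).

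Klf7, the closest relative of Klf6 and known for its role in neuron and fat cell differentiation, lies at chr1:64029447-64122282 (minus strand). It stood at 16.4, 16.1 and 16.1 CPM in mock, 23.1, 24.0 and 24.8 CPM with poly(dA:dT), and 45.5, 45.2 and 48.7 CPM with poly(I:C). No library of one group reached the range of another. The fitted rise was 1.48-fold after poly(dA:dT) (adjusted p = 1.32e-13) and 2.86-fold after poly(I:C) (adjusted p = 8.87e-55), and the groups given the agents differed 1.93-fold (log2 0.95 ± 0.06 SE, adjusted p = 9.01e-35). The kit does not mark strand, and the exons of Klf7 overlap the antisense genes Gm26649 over 3196 bases and Gm13748 over 4 bases. Both had 0 counts in all libraries. How reads over these shared bases were counted is not given, so the level of Klf7 per length may be too low.

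Klf4, one of the factors used to reprogram fibroblasts to pluripotent cells and a regulator of epithelial barrier and smooth muscle genes, lies at chr4:55527143-55532466 (minus strand). Its level was 20.8, 22.7 and 20.2 CPM in mock libraries and 21.3, 23.4 and 22.0 CPM with poly(dA:dT), and these groups overlapped. After poly(I:C) it was 33.7, 34.7 and 40.6 CPM, above every other library, with replicate 3 the highest. The fold after poly(dA:dT) was 1.05 (95% interval 0.958 to 1.15, adjusted p = 0.409). After poly(I:C) Klf4 rose 1.70-fold over mock (1.56 to 1.85, adjusted p = 1.4e-23) and was 1.62-fold above poly(dA:dT) (log2 0.70 ± 0.06 SE, adjusted p = 2.37e-20).

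Klf5, known for promoting proliferation of epithelial and smooth muscle cells, was low and lies at chr14:99298691-99315036 (plus strand). It stood at 8.70, 7.43 and 9.74 CPM in mock, 9.73, 8.98 and 9.78 CPM with poly(dA:dT), and 11.3, 12.0 and 10.9 CPM with poly(I:C). The mock and poly(dA:dT) libraries overlapped, and the poly(I:C) libraries lay above both. The fold after poly(dA:dT) was 1.11 (95% interval 0.967 to 1.27, adjusted p = 0.215), and the rise after poly(I:C) was 1.34-fold (1.17 to 1.53, adjusted p = 7.33e-05). Klf5 was 1.21-fold higher after poly(I:C) than after poly(dA:dT) (adjusted p = 0.012), a call lost without poly(dA:dT) replicate 2 (adjusted p = 0.0664) or without poly(I:C) replicate 2 (0.0745). Epithelial markers were followed beside Klf4 and Klf5, and 3 of 6 could be tested. The sum of the 6 was 17.5 to 19.1 CPM in mock, 14.9 to 19.4 with poly(dA:dT) and 16.1 to 17.4 with poly(I:C), most of it Krt19. Cdh1 and Krt14 were called higher and Krt19 lower after poly(I:C), and none of the 3 was called after poly(dA:dT). Over all genes tested, 39.8% were higher and 36.3% lower after poly(I:C). Cdh1 had 10 to 20 and Krt14 10 to 17 counts per mock library. Both passed the filter on low counts partly through the treated libraries, so their calls are not used. The Krt14 call was lost without mock replicate 1 (adjusted p = 0.0898) or poly(I:C) replicate 1 (0.0871), and Krt19 was called lower after poly(dA:dT) without poly(dA:dT) replicate 2 (log2 -0.25, adjusted p = 0.0139). Their part in the Klf4 and Klf5 results was not tested.

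Klf3 represents the CtBP-binding repressors, is known as a restraint on fat cell and blood cell genes, and lies at chr5:64803388-64832901 (plus strand). Its level was 65.3, 65.5 and 65.8 CPM in mock, 60.7, 61.5 and 60.2 CPM with poly(dA:dT), and 48.9, 49.6 and 48.6 CPM with poly(I:C). The groups did not overlap and fell in that order. Klf3 dropped to 0.928 times mock after poly(dA:dT) (95% interval 0.879 to 0.980, adjusted p = 0.0181) and to 0.749 times mock after poly(I:C) (0.707 to 0.793, adjusted p = 1.86e-17). It was lower after poly(I:C) than after poly(dA:dT), at 0.807 times (log2 -0.31 ± 0.04 SE, adjusted p = 1.29e-10). The small fall after poly(dA:dT) was no longer called with upper-quartile scaling (log2 -0.09, adjusted p = 0.0637), with total counts (-0.03, 0.514) or without poly(dA:dT) replicate 3 (-0.10, 0.0579). An antisense gene, Gm20033, overlaps the Klf3 exons over 404 bases and held 89 counts in all, against 11706 for Klf3.

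Klf10 and Klf11, also called TGF-β-inducible early genes, belong to the Sin3A-binding group, act mostly as repressors of proliferation genes and lie at chr15:38291463-38300706 (minus strand) and chr12:24651274-24662789 (plus strand). Klf10 stood at 66.2, 60.5 and 61.8 CPM in mock, 122, 121 and 116 CPM with poly(dA:dT), and 206, 205 and 205 CPM with poly(I:C). The groups were far apart. Klf10 rose 1.90-fold after poly(dA:dT) (95% interval 1.81 to 1.99, adjusted p = 1.65e-58) and 3.26-fold after poly(I:C) (3.12 to 3.40, adjusted p = 1.09e-98), and the agents differed 1.72-fold (log2 0.78 ± 0.03 SE, adjusted p = 4.91e-57).

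Klf11 was the least abundant of the 10 per length of all exons in mock. Its level was 4.40, 4.28 and 5.32 CPM in mock, 9.49, 7.23 and 8.61 CPM with poly(dA:dT), and 9.84, 9.14 and 9.96 CPM with poly(I:C). Both treated groups lay above mock and overlapped each other. The rise was 1.82-fold after poly(dA:dT) (95% interval 1.55 to 2.14, adjusted p = 1.25e-10) and 2.08-fold after poly(I:C) (1.77 to 2.45, adjusted p = 3.55e-15). Between the agents the fold was 1.14 with an interval of 0.988 to 1.32 (adjusted p = 0.107). That difference was called with total counts (log2 0.23, adjusted p = 0.0492) and without poly(dA:dT) replicate 1 (0.28, 0.0395).

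Klf9, known as a target of glucocorticoid and thyroid hormone receptors, lies at chr19:23141226-23168134 (plus strand). It stood at 19.5, 17.7 and 18.8 CPM in mock, 12.7, 12.7 and 13.6 CPM with poly(dA:dT), and 13.4, 13.2 and 13.8 CPM with poly(I:C). All 6 treated libraries lay below all mock libraries, and the treated groups overlapped. Klf9 fell to 0.696 times mock after poly(dA:dT) (95% interval 0.626 to 0.774, adjusted p = 2.6e-09) and to 0.719 times after poly(I:C) (0.646 to 0.801, adjusted p = 3.29e-08). Between the agents the fold was 1.03 (0.921 to 1.16, adjusted p = 0.642).

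Klf13, known for late control of the chemokine gene Ccl5 in T cells, lies at chr7:63886351-63938915 (minus strand). Its level was 13.1, 12.3 and 13.1 CPM in mock, 12.9, 11.9 and 11.6 CPM with poly(dA:dT), and 9.31, 8.32 and 9.0 CPM with poly(I:C). Mock and poly(dA:dT) overlapped, and the poly(I:C) libraries lay below both. The fold after poly(dA:dT) was 0.945 (95% interval 0.839 to 1.06, adjusted p = 0.459). Klf13 fell to 0.692 times mock after poly(I:C) (0.608 to 0.786, adjusted p = 1.78e-07) and was 0.732 times the poly(dA:dT) level (log2 -0.45 ± 0.10 SE, adjusted p = 1.64e-05).

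**Figure D2:**
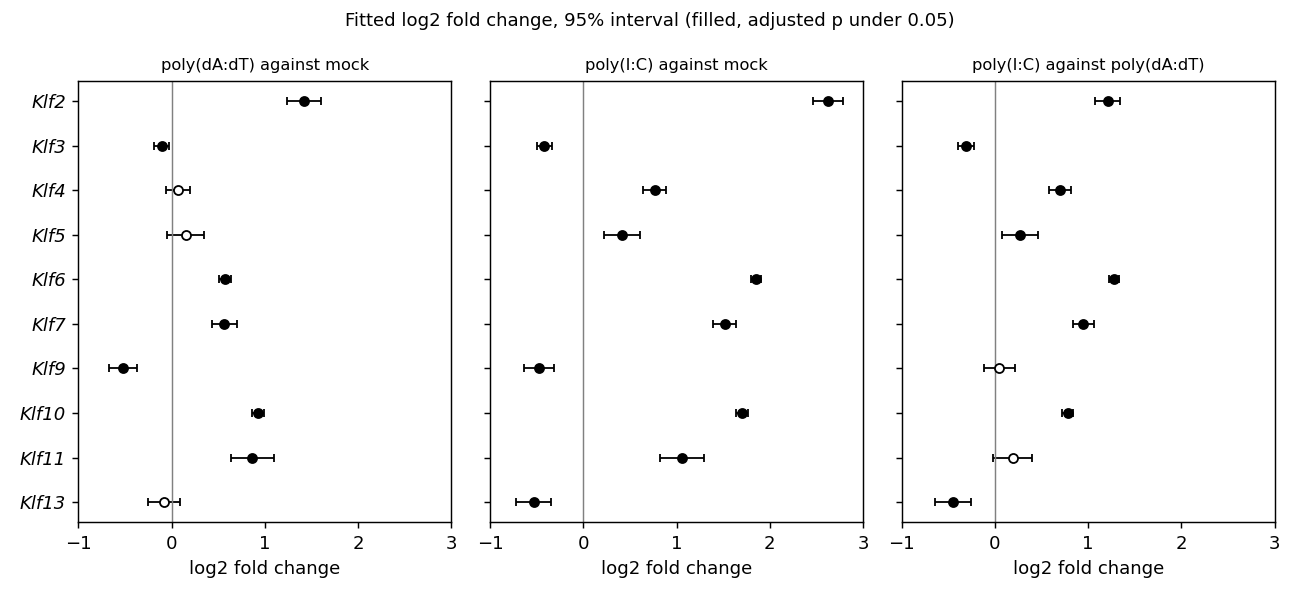
Fitted log2 fold change of each KLF gene (x axis) in the 3 comparisons, with its 95% interval; filled points have an adjusted p under 0.05. Klf2 reaches 2.62 and Klf6 1.85 in poly(I:C) against mock, where all 10 points are filled, while Klf4, Klf5 and Klf13 are open in poly(dA:dT) against mock and Klf9 and Klf11 are open in poly(I:C) against poly(dA:dT).

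By role, the genes of the activator group were higher or not called, and the others were mixed. All 5 genes of the activator group, Klf2, Klf4, Klf5, Klf6 and Klf7, were higher after poly(I:C), as were 39.8% of all genes tested, while 36.3% were lower. After poly(dA:dT), Klf2, Klf6 and Klf7 were higher, as were 26.6% of all genes, and Klf4 and Klf5 were not called. Of the 4 Sin3A-binding members, Klf10 and Klf11 were higher and Klf9 and Klf13 lower after poly(I:C).

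Levels were compared between genes only as CPM per kilobase of exon. In mock, Klf6 was highest at 19.2 CPM per kb, followed by Klf10 at 15.04, Klf4 at 6.96, Klf3 at 5.83, Klf9 at 3.88, Klf2 at 3.19, Klf7 at 1.99, Klf13 at 1.70, Klf5 at 1.66 and Klf11 at 1.08. Neighbours in this order did not overlap over the 3 libraries, except Klf13 and Klf5. The rank of Klf7 is limited by the antisense overlap of its exons. With the length of the longest transcript in place of all exons, Klf10 ranked first and Klf6 next, and Klf3 ranked above Klf4. Per length of all exons after poly(dA:dT), Klf10 (28.6 CPM per kb) and Klf6 (28.5) overlapped, as did Klf11 and Klf5. By longest transcript, Klf10 was at 39.3 and Klf6 at 29.6. Klf2 had moved to 8.60 by all exons, above Klf4 at 7.30. After poly(I:C) the order began with Klf6 at 69.1, Klf10 at 49.1, Klf2 at 19.9 and Klf4 at 11.9, and ended with Klf13 at 1.18, with Klf11 and Klf5 again overlapping.

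The 10 transcripts together made 60.5 ± 1.38 CPM per kb (SD, n = 3) in mock, 89.5 ± 0.494 with poly(dA:dT) and 169 ± 1.45 with poly(I:C). Klf6 and Klf10 were the bulk of this sum in every group. Klf6 held 31.7% of it in mock, 31.8% with poly(dA:dT) and 41.0% with poly(I:C), and Klf10 held 24.9%, 32.0% and 29.2%. The share of Klf2 was 5.26%, 9.62% and 11.8% in the same order. Klf3 went the other way, from 9.64% to 6.04% and 2.59%, and Klf9 from 6.41% to 3.02% and 1.66%. Klf4 rose in CPM with poly(I:C), yet its share was 11.5% in mock and 7.07% after poly(I:C). All these shares rest on the length of all exons. By longest transcript, Klf10 was above Klf6 in mock (20.7 against 19.9 CPM per kb), and Klf3 was at 12.5 in place of 5.83.

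**Figure D3:**
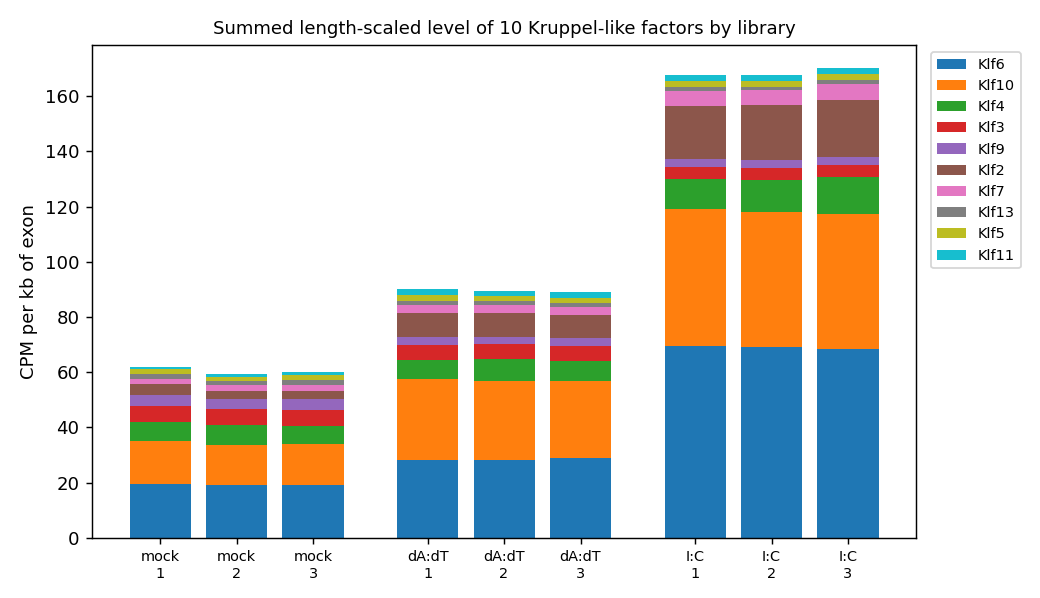
Summed level of the 10 KLF genes in CPM per kb of exon (stacked bars from 0, one bar per library, coloured by gene). The sum is 59.3 to 62.0 in mock, 89.0 to 90.0 with poly(dA:dT) and 168 to 170.2 with poly(I:C), and Klf6 and Klf10 are the thickest bands in each library.

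The remaining KLF genes were mostly low. Of 7 others, 4 passed the filter on low counts, Klf15 and Klf1 only through the treated libraries, so their calls are not counted. Of Klf8 and Klf16, only Klf8 was called against mock, and only after poly(I:C), where 39.8% of all genes were called higher. Klf8, the CtBP-binding relative of Klf3, was at 3.35 ± 0.337 CPM (SD, n = 3) in mock, 3.73 ± 0.633 with poly(dA:dT) and 10.2 ± 1.11 with poly(I:C). It rose 3.02-fold after poly(I:C) (adjusted p = 2.74e-24), while Klf3 fell, and was not called after poly(dA:dT) (adjusted p = 0.463). Klf15, at 13 counts in the 3 mock libraries together, passed the filter on low counts through the treated libraries, so its calls against mock are not used. Its mean level was 0.185 CPM in mock, 0.784 with poly(dA:dT) and 0.68 with poly(I:C). Klf1, the erythroid factor, with 34 counts in the mock libraries together, also passed the filter through the treated libraries, and its calls against mock are not used either. The mean of Klf1 was 0.455 CPM in mock, 0.803 with poly(dA:dT) and 1.18 with poly(I:C). Klf16, named after its values were seen, stood at 43.6, 45.5 and 42.4 CPM in the 3 groups and was not called in any comparison. Klf14 had 0 counts in every library.

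The Sp genes encode the sister branch that binds the same boxes, and 5 of 9 could be tested. After poly(dA:dT) 2 rose and 1 fell, and after poly(I:C) 3 rose and 1 fell, with medians of 0.09 and 0.08 on the log2 scale. For comparison, 26.6% of all genes tested were higher and 26.2% lower with poly(dA:dT), and 39.8% and 36.3% with poly(I:C). Sp2 rose in both (log2 0.40 and 0.80, adjusted p = 4.59e-12 and 1.81e-34). Sp8, a developmental factor of limb and brain, fell in both (log2 -0.59 and -1.22, adjusted p = 1.47e-05 and 7.03e-15). Sp4 rose after poly(I:C) (log2 0.40, adjusted p = 0.00211). Sp3 rose there by a log2 of 0.08 (adjusted p = 0.0252), a call that 6 of 17 alternative settings lost, among them the fits without mock replicate 2 and without poly(I:C) replicate 2. Sp1, named after its values were seen, was at 212, 226 and 212 CPM in the 3 groups and rose only slightly after poly(dA:dT) (log2 0.09, adjusted p = 0.00122).

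Kinases, receptors and transcription factors known to act upstream of KLF genes moved both ways. Of 14, 2 rose and 6 fell after poly(dA:dT), and 6 rose and 4 fell after poly(I:C), with medians of -0.02 and 0.04 on the log2 scale. All genes tested also moved both ways, with medians of 0.01 and 0.04. Of these, 26.6% were higher and 26.2% lower with poly(dA:dT), and 39.8% and 36.3% with poly(I:C). The poly(I:C) median of the list was thus that of all genes. Tgfbr1, a receptor for TGF-β, fell after both agents, from 70.7 CPM in mock to 59.0 and 40.4 (log2 -0.26 and -0.81, adjusted p = 7.17e-09 and 1.16e-39), while Klf10 and Klf11 rose. Smad3, which carries the TGF-β signal to the nucleus, rose after poly(I:C) (log2 0.45, adjusted p = 1.56e-21). After poly(dA:dT) Smad3 was at log2 -0.11 (adjusted p = 0.0186), a call lost with upper-quartile scaling, with total counts, and without mock replicate 2, poly(dA:dT) replicate 1 or poly(dA:dT) replicate 2 (adjusted p up to 0.498). Mef2d, a MEF2 factor of the pathway that induces Klf2, fell after both (log2 -0.15 and -0.33, adjusted p = 0.000144 and 1.94e-14), the former not called with total counts (0.0589). Mef2c was low, at 1.99, 2.14 and 1.41 CPM, and was not called against mock. It was called lower after poly(I:C) without mock replicate 1 or without poly(I:C) replicate 1, the smallest adjusted p being 0.00565. The genes that rose after poly(dA:dT), named after their values were seen, were Foxo1 and Smad2.

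Partners of KLF proteins were mostly lower, while of all genes tested 26.2% were lower with poly(dA:dT) and 36.3% with poly(I:C). Of 9 corepressors and coactivators, 1 rose and 6 fell after poly(dA:dT), and 1 rose and 8 fell after poly(I:C), with medians of -0.16 and -0.35 on the log2 scale. Ctbp1, the corepressor bound by KLF3, was at 313, 275 and 223 CPM in mock, poly(dA:dT) and poly(I:C), and fell in both (log2 -0.19 and -0.49, adjusted p = 1.96e-12 and 1.37e-44). Ctbp2 fell in both (log2 -0.19 and -0.41, adjusted p = 0.0022 and 6.48e-11). Its fall after poly(dA:dT) was not called with total counts (adjusted p = 0.0748). Sin3b, a Sin3 scaffold (log2 -0.19 and -0.48, adjusted p = 8.23e-11 and 3.95e-37), and the deacetylase gene Hdac2 (-0.20 and -0.55, adjusted p = 2.03e-10 and 2.22e-40) fell as well. The gene that rose in both was Ep300, an acetyltransferase named after its values were seen (log2 0.20 and 0.37, adjusted p = 1.52e-12 and 2.94e-30).

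Ubiquitin ligases and adaptors known to act on KLF proteins had small changes, with medians of 0.10 and 0.01 on the log2 scale. Of 8, 4 rose after poly(dA:dT) and none fell, and 2 rose and 2 fell after poly(I:C). The shares over all genes tested were 26.6% higher and 26.2% lower with poly(dA:dT), and 39.8% and 36.3% with poly(I:C). Btrc rose in both (log2 0.25 and 0.31, adjusted p = 2.48e-06 and 2.95e-09). Smurf1 rose after poly(dA:dT) (log2 0.18, adjusted p = 1e-07). After poly(I:C) it was at log2 0.07 (adjusted p = 0.0467), a call that 13 of 17 alternative settings lost. Fbxo32 fell after poly(I:C) (log2 -0.48, adjusted p = 0.00711), and lost that call without poly(I:C) replicate 2 (adjusted p = 0.132). Smurf2 was at log2 -0.09 after poly(I:C) (adjusted p = 0.0243), a call lost with upper-quartile factors, with the filter of 50 counts and without mock replicate 1, mock replicate 3 or poly(I:C) replicate 3, and at 0.025 with total counts. The other genes that rose after poly(dA:dT), named after their values were seen, were Vhl and Siah1a.

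Genes known to be regulated by KLF proteins in some tissue were more often lower than higher. Of 14, 13 could be tested, and 4 rose and 6 fell after poly(dA:dT), and 4 rose and 8 fell after poly(I:C), with medians of -0.10 and -0.53 on the log2 scale. Among all genes tested, 26.6% were higher and 26.2% lower with poly(dA:dT), and 39.8% and 36.3% with poly(I:C). Ccl5, a chemokine gene that also answers interferon signalling, rose from 2.09 CPM in mock to 58.9 and 683 CPM (log2 4.82 and 8.35, adjusted p = 6.04e-114 and 5.44e-177). Vegfa, an angiogenic factor, rose from 65.4 to 90.6 and 120.04 CPM (log2 0.47 and 0.87, adjusted p = 2.4e-24 and 1.2e-53). Thbd, the thrombomodulin gene that KLF2 induces in endothelium, fell from 9.88 to 7.09 and 4.36 CPM (log2 -0.48 and -1.18, adjusted p = 4.21e-05 and 1.48e-17), while Klf2 rose. The mitotic cyclin gene Ccnb1 fell from 283 to 232 and 165 CPM (log2 -0.29 and -0.78, adjusted p = 7.92e-22 and 4.05e-65). Nos3, an endothelial KLF2 target, had 24 counts in each group and was too low to test. S1pr1, named after its values were seen, fell after poly(dA:dT) (log2 -0.26, adjusted p = 9.65e-07) and rose after poly(I:C) (0.68, adjusted p = 9.72e-33).

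**Figure D4:**
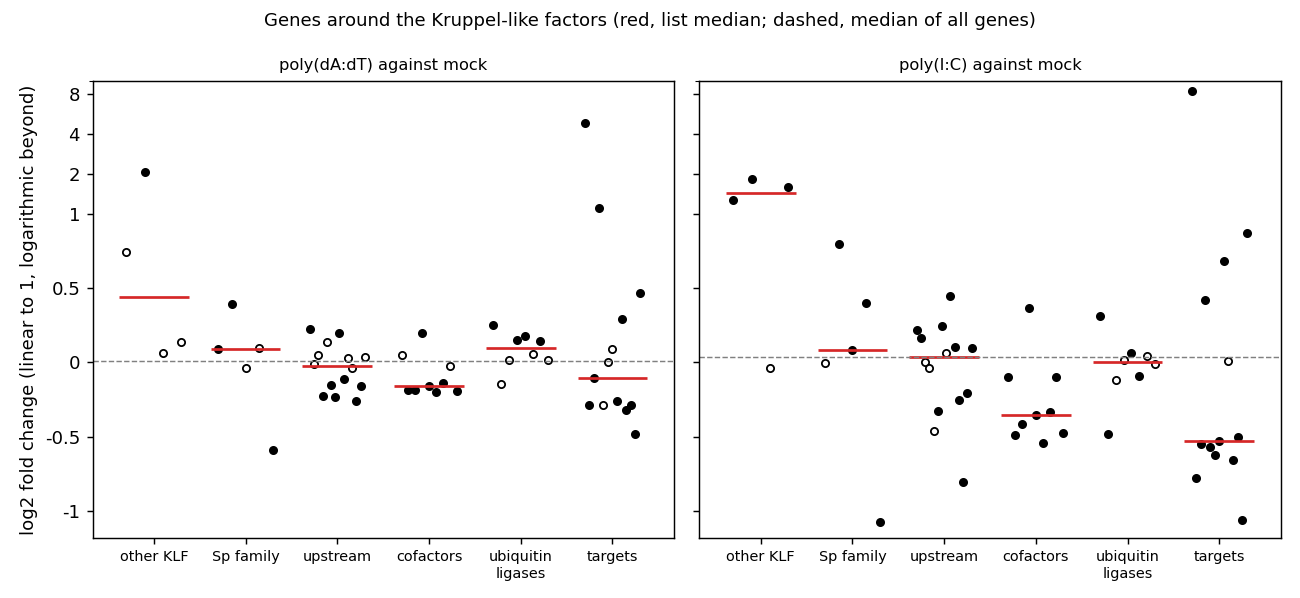
Log2 fold change against mock (y axis, linear to 1 and logarithmic beyond) of the tested genes in each list of KLF-related genes, for poly(dA:dT) and poly(I:C), with filled points called, the list median in red and the median of all genes dashed. The point at 8.35 is Ccl5, and the points of the corepressor and coactivator list lie below 0 except Ep300 and, after poly(dA:dT), Crebbp.

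For each KLF gene, the transcripts with the most similar course over the 9 libraries were found among 10188 genes of at least 5 CPM, as the smallest root mean square difference of centred log2 CPM. The 9 libraries share 3 conditions, so many genes run alike, and the values are a description. For Klf2 these were Dusp8 (0.0924), Arc (0.11) and Txnip (0.113). For Klf6 they were Relt (0.0619), Mettl21a (0.0655) and Dusp16 (0.0757). For Klf7 they were Relb (0.0495), Irf2 (0.0559) and Snai2 (0.0586). For Klf10 the nearest were Unk (0.0426), Slc25a25 (0.0456) and Zfp948 (0.0505). Klf11, measured on the fewest counts, had the largest distances, to Iffo1, Ticrr and Deaf1 (0.113 to 0.128). For Klf4 the nearest were Ikzf2, Cox18 and Sh3bp4 (0.074 to 0.0787), and for Klf5 Pdp1, Chek1 and Plekhm3 (0.0445 to 0.0582). Among the genes that fell, Klf3 ran closest to Rangap1, Rab31 and Myo1c (0.0156 to 0.0185), Klf9 to Asb4, F3 and Ccn5 (0.0529 to 0.0705), and Klf13 to Arhgef10l, Dusp7 and Dusp9 (0.05 to 0.0527).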

How the data were processed

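RNA-seq counts were analysed in 9 libraries of β-actin knockout MEFs, 3 per group. Per the labels' protocols, RNA came from an RNeasy extraction and went into a TruSeq RNA v2 preparation. The submitters' processing notes name TopHat2 2.1.0, HTSeq, DESeq2 and build GRCm38.p4. Not given in the sources used here are the annotation release, the strand option and the handling of multiply mapping reads, which could shift reads between overlapping genes or close paralogs. Each deposited file holds raw counts of reads for 46603 Ensembl genes, used as the authors left them. GENCODE M21 named 46091 of these genes; the remaining 512 held 0.0588% of all reads.

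The test was that of edgeR 4.0.16 under R 4.3.3 (TMM scaling, filterByExpr by group, robust quasi-likelihood test, two-sided, prior count 0.125). All 9 libraries entered 1 fit with 6 residual degrees of freedom, and p-values were Benjamini-Hochberg adjusted over 14176 genes with a threshold of 0.05. CPM used TMM-scaled library sizes. Standard errors (SE) were derived from each log2 fold change and its F statistic (size over root F), and 95% intervals from the SE. Levels per kilobase used the union of a gene's exons. The procedure was tested on simulated counts. No pair of replicates agreed within sampling noise in a chi-square test, so each library counted once.

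The members and the gene lists were chosen with earlier results of these data known. All 10 members are named. From each further list up to 4 genes called in any comparison are named, those with the largest change in poly(I:C) against mock, and each member is given the 3 genes of most similar course. Alternatives covered scaling (DESeq2 1.42.0 size factors, upper quartile, total counts), the DESeq2 Wald test, filters, the samples in the fit, the replicate number as a block, gene length and leaving out each library. Promoter windows came from a RefSeq table. Protein sequences were not analysed here.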

Additional observations from a re-analysis of the deposited data

How the results depend on the processing

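The log2 fold changes of the 10 KLF genes in the 3 comparisons were recomputed under 17 alternatives, 510 values in all. Of these, 503 kept their direction and side of the threshold, 5 lost the call, 2 gained one, and none changed direction. The losses and gains concern Klf3, Klf5 and Klf11 and are given with those genes. Against mock, 5 members were higher with poly(dA:dT) and 7 higher and 3 lower after poly(I:C) in all 17 alternatives. The number lower after poly(dA:dT) was 1 with upper-quartile factors and with total counts, and 1 to 2 when single libraries were left out. The number higher in poly(I:C) against poly(dA:dT) was 5 to 7. Over all genes, total counts gave 2389 lower after poly(dA:dT) in place of 3721, and 67.7% of calls higher in place of 50.3%. Total counts shifted the median log2 fold change of all genes after poly(I:C) from 0.04 to 0.15. Among the other listed genes, 1832 of 1908 values kept direction and side of the threshold, 60 lost the call, 10 gained one and 6 changed sign. Over all alternatives after poly(dA:dT), Fbxo32 was at -0.30 to 0.027 (above 0 without poly(dA:dT) replicate 3). Klf8 was at -0.0013 to 0.22 (below 0 without poly(dA:dT) replicate 1). Mef2c was at -0.038 to 0.28 (below 0 without mock replicate 1), and Thy1 at -0.0056 to 0.28 (below 0 without mock replicate 2). Total counts gave Sp3 at 0.034 after poly(dA:dT) and Smurf2 at 0.025 after poly(I:C). The cause of these changes was not tested, though fits without a library rest on fewer samples. Libraries with the same replicate number did not deviate together (correlations -0.0138 to 0.0225), and 3 of 9 correlated best with their own number. With the replicate number as a block, the members called were 5 higher and 2 lower with poly(dA:dT), 7 and 3 with poly(I:C), and 6 and 2 between the agents, as without the block. Over all genes the block gave 3723 higher and 3661 lower with poly(dA:dT), 5615 and 5109 with poly(I:C), and 4381 and 4524 between the agents. In mock, counts were fewest for Klf11 and Klf2, with 101 to 123 and 106 to 189 per library. After poly(I:C) they were fewest for Klf13, with 150 to 193.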
